A study of Homo sapiens with 9 samples.

Results

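The genes described here encode the proteins that prepare, start and drive DNA replication forks, and they comprise 49 of the 25679 gene symbols in the count table. They were chosen by name: licensing factors (9 genes), origin firing factors (9), polymerase and primase subunits (10), the sliding clamp with its loaders (8), enzymes that process Okazaki fragments (3), the single-strand binding protein RPA (3), fork protection factors (4) and histone deposition factors (3). The MCM helicase genes and the enzymes of nucleotide synthesis were left to separate lists. All 49 genes were found, and all 49 passed the filter on low counts. The lowest count of any of them in any library was 36.

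The RNA came from MOLM13, an established line of human acute myeloid leukemia cells that carries a KMT2A fusion, and was sequenced after selection of messenger RNA. The cells carried YTHDC1 shRNA 2 (sh2), YTHDC1 shRNA 1 (sh1) or a control shRNA (shCtrl), with 3 libraries in each group. YTHDC1 is a nuclear protein that binds methylated adenosine in RNA. Cells of every group, controls included, received virus by a 1 h spin at 32 °C with polybrene, rested for 48 h, and were kept in puromycin at 3 ug/ml for another 48 h. The labels number the libraries but do not call them separate cultures, so the p-values reflect only how much the libraries of a group varied, and that variation may be technical.

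Before S phase, the origin recognition complex (ORC), CDC6 and CDT1 load inactive MCM helicases onto DNA, and geminin blocks CDT1 once S phase has begun. The kinase CDC7 with DBF4, together with the cyclin-dependent kinases and the adaptors TICRR and TOPBP1, then recruits CDC45 and the GINS complex, which turn MCM into a moving helicase. DNA polymerase alpha and primase lay down primers, the RFC complex loads the PCNA clamp at them, and polymerases epsilon and delta copy the leading and the lagging strand. Several of these genes are textbook targets of E2F transcription factors and are used as markers of cycling cells.

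Library totals ran from 26455628 counts, in sh2 replicate 1, to 67558535 counts. At these depths 3 counts correspond to 0.0444 to 0.113 CPM (counts relative to the library total) before TMM scaling, a limit that covers counting error only. All other CPM values are given after TMM scaling. YTHDC1 had 0, 61.4 and 52.5 CPM in the sh2 libraries and 117, 103 and 134 CPM in the sh1 libraries, against 134, 139 and 122 CPM in the shCtrl libraries. The sh1 and shCtrl libraries overlapped, so the sh1 group is identified by its labels and not by its YTHDC1 level. In the fit of all libraries YTHDC1 passed with neither shRNA (log2 fold change -1.79 ± 1.41 (SE) and edgeR adjusted p = 0.326 with sh2, -0.16 ± 1.36 and adjusted p = 0.938 with sh1). Replicate 1 of sh2 had no count in the 1 transcript row kept for YTHDC1. Without that library, YTHDC1 was lower with sh2 (log2 fold change -1.23 ± 0.15, edgeR adjusted p = 2.20e-05). Replicate 1 of sh2 also stood apart over all genes, with correlations of log2 CPM across genes of 0.908 and 0.906 to the other sh2 libraries, which correlated at 0.993 with each other. The counts of called genes, the medians over all 49 genes, the promoter groups and the marker lists, and the ranges of the shift of single values and ratios, are therefore also given without it. The ribosomal RNA precursor RNA45S5 took an uneven share of the counts. It took 1.12, 5.8 and 4.54% in the sh2 libraries and 9.68, 13.06 and 4.78% in the sh1 libraries. In the shCtrl libraries the shares were 3.04, 5.25 and 5.57%. The myeloid markers SPI1, CD33, FLT3 and CEBPA, and the general leukocyte marker PTPRC, were present in every library.

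Transcripts of the replication genes were lower with both shRNAs, and lower with sh2 than with sh1. With sh2, 48 of the 49 genes fell (edgeR adjusted p under 0.05) and 0 rose, and the median log2 fold change was -1.96. Over all 16746 genes tested, 27.4% fell with sh2 and the median was -0.02. With sh1, 42 genes fell, 0 rose and 7 did not pass, and the median was -1.22. Over all genes tested, 19.0% fell with sh1 and the median was 0.02. Both comparisons use the same control libraries, so the counts are not independent of each other. The 7 genes that did not pass with sh1 were ORC2, ORC3, ORC4, ORC5, PRIM2, POLE3 and RPA1, and the gene that did not pass with sh2 was ORC4.

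The size of the change differed widely among the genes. With sh2, 39 genes fell by more than 2-fold, which 10.9% of all genes tested did, and 24 fell by more than 4-fold, which 2.76% of all genes tested did. With sh1, 33 genes fell by more than 2-fold, which 6.20% of all genes tested did, and 3 (CHTF18, CDT1 and CDC45) fell by more than 4-fold, which 0.824% of all genes tested did. The summed level of the 49 genes was 880, 939 and 878 CPM in the sh2 libraries and 1447, 1275 and 1292 CPM in the sh1 libraries, against 2768, 2549 and 2359 CPM in the shCtrl libraries. The 3 groups were fully separated in this sum, which amounted to 35.1% of the control mean with sh2 and to 52.3% with sh1. Every sh2 library lay below every control library for 48 genes, an arrangement found in 35.0% of all genes tested. With sh1 it held for 43 genes, against 24.2% of all genes tested. In RNA from whole cultures, fewer cells of a kind and less RNA per cell cannot be told apart.

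**Figure D1:**
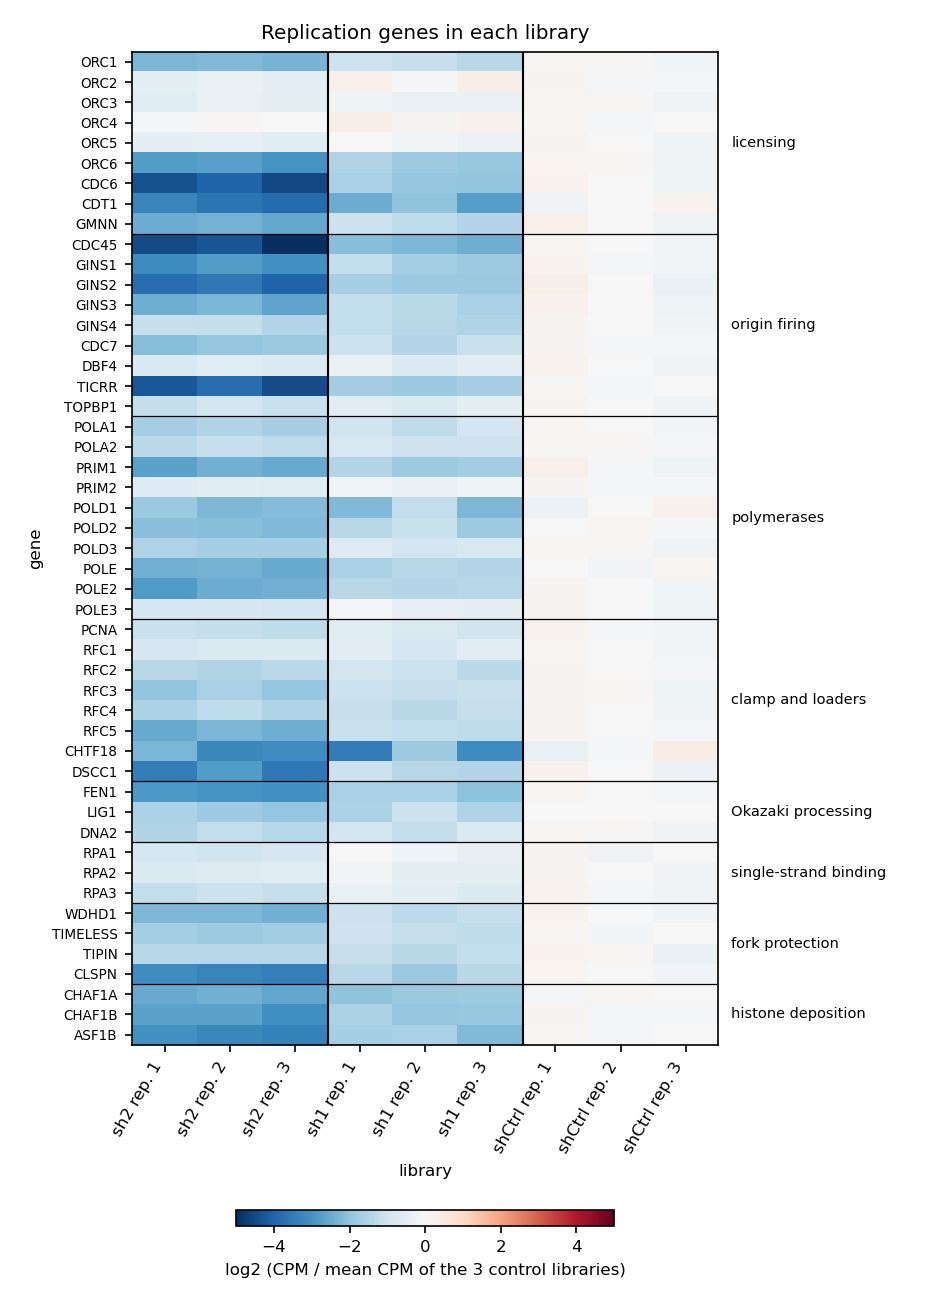
Each row is 1 of the 49 replication genes, grouped by class, and each column 1 library; colour gives the log2 ratio of its CPM to the mean CPM of the 3 control libraries, from blue (lower) to red (higher). The sh2 columns are the darkest blue, in CDC45, CDC6 and TICRR most of all, the sh1 columns are paler, and the rows of ORC2 to ORC5, PRIM2 and RPA2 are nearly white throughout.

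Without sh2 replicate 1 the counts were 48 with sh2 and 43 with sh1, and the medians -1.91 with sh2 and -1.24 with sh1. The sh2 log2 fold changes of single genes then shifted by between -0.34 (CHTF18) and 0.09 (POLE2). The counts and medians were thus close to those with all libraries.

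**Figure D2:**
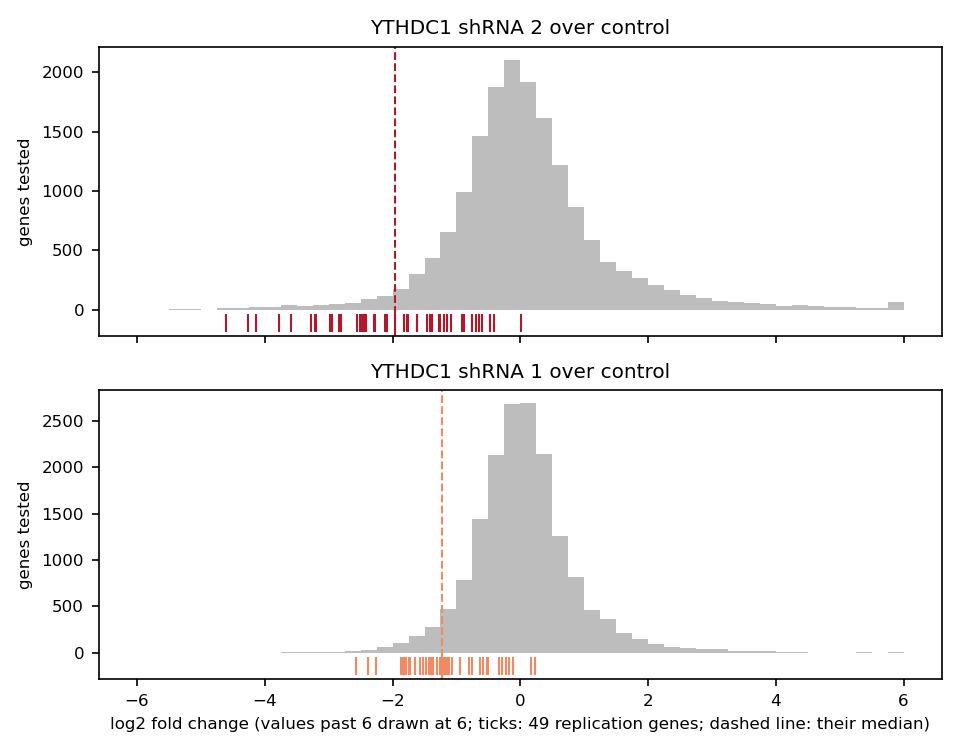
Grey bars count all 16746 genes tested by log2 fold change, with sh2 over control above and sh1 over control below; coloured ticks are the 49 replication genes and the dashed line is their median. The medians of -1.96 (sh2) and -1.22 (sh1) lie left of the bulk of the genes, and ticks of a few ORC subunits stand near 0.

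Among the licensing factors, 8 of 9 fell with sh2 and 5 of 9 with sh1 (median log2 fold changes -2.27 and -1.18). CDC6, the ATPase that joins ORC at origins to load MCM, had 2.56, 3.25 and 2.29 CPM in the sh2 libraries and 17.1, 13.7 and 13.2 CPM in the sh1 libraries, against 58.1, 53.1 and 45.1 CPM in the shCtrl libraries. The 3 groups did not overlap. CDC6 was 19.2-fold lower with sh2 (log2 fold change -4.27 ± 0.18, edgeR adjusted p = 2.89e-08) and 3.56-fold lower with sh1 (-1.83 ± 0.16, edgeR adjusted p = 1.16e-05), and it had the largest difference of sh2 over sh1 of all 49 genes (-2.44 ± 0.17, edgeR adjusted p = 3.74e-06). CDT1, which brings MCM to the origin, fell by 3.59 on the log2 scale with sh2 and by 2.38 with sh1. Geminin (GMNN), its inhibitor, fell by 2.46 with sh2 and by 1.25 with sh1.

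The ORC subunits split into those that changed strongly and those that hardly changed. ORC4, a core subunit of the complex, had 31.8, 34.3 and 33.2 CPM in the sh2 libraries and 40.6, 36.2 and 38.4 CPM in the sh1 libraries, against 34.4, 31.8 and 32.1 CPM in the shCtrl libraries. The sh2 and shCtrl libraries overlapped almost completely, and the sh1 libraries were slightly higher than both (log2 fold change 0.01 ± 0.09 and edgeR adjusted p = 0.912 with sh2, 0.23 ± 0.09 and adjusted p = 0.0731 with sh1). ORC2, ORC3 and ORC5, the other stable core subunits, had log2 fold changes of -0.42, -0.47 and -0.47 with sh2, each past the test, and of 0.17, -0.29 and -0.12 with sh1, none past it. The ORC3 value with sh1 (edgeR adjusted p = 0.0536) passed without shCtrl replicate 3 (-0.38, adjusted p = 0.0281) and without sh2 replicate 1 (-0.31, adjusted p = 0.0499), and over every transcript row (adjusted p = 0.0353). ORC1, the subunit whose protein comes and goes with the cell cycle in human cells, fell by 2.27 with sh2 and by 1.18 with sh1, and ORC6, the smallest subunit, fell by 2.83 with sh2 and by 1.73 with sh1.

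Ratios of counts within a library, for pairs of genes picked after their values had been seen, show the same split without any scaling between libraries. ORC1 had 0.282, 0.266 and 0.269 counts per ORC2 count in the sh2 libraries and 0.395, 0.472 and 0.311 in the sh1 libraries, against 0.944, 1.08 and 0.939 in the shCtrl libraries. The ratio averaged 27.6% of its control mean with sh2 and 39.8% with sh1, with no overlap among the groups. The ratio of ORC6 to ORC2 averaged 18.8% of the control mean with sh2 and 27.1% with sh1. The ratio of ORC5 to ORC2 averaged 96.7% of it with sh2 and 83.0% with sh1, and all 3 groups overlapped. CDT1 per GMNN count came to 44.7% of the control mean with sh2 and 44.6% with sh1, both groups lying below the controls and overlapping each other. Without sh2 replicate 1, the sh2 percentages of the 10 ratios computed shifted by between -5.08 (CDT1 per GMNN, which then came to 39.6%) and 2.64 percentage points (POLE2 per POLE3, then 34.0%).

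**Figure D3:**
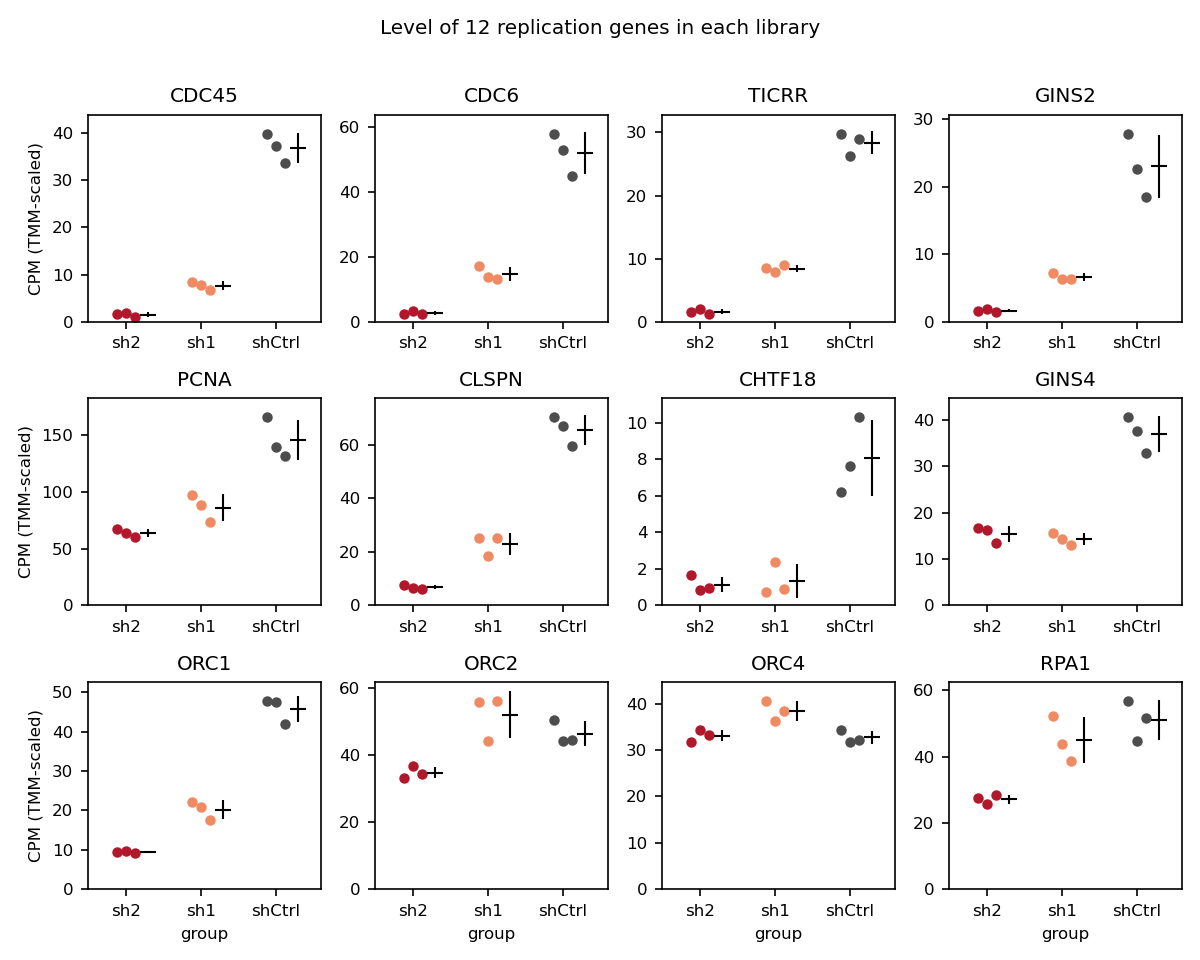
Each panel gives the CPM of 1 gene in every library (points, TMM-scaled) with the group mean and SD (bars, n = 3), in the order sh2, sh1, shCtrl. CDC45, CDC6, TICRR and GINS2 lie near the floor of the axis with sh2 and in between with sh1, GINS4 points of both shRNAs overlap below the controls, and ORC4 has its sh2 points among the control points.

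All 9 origin firing factors fell with each shRNA (median log2 fold changes -2.45 with sh2 and -1.39 with sh1). CDC45, an essential part of the active helicase, had 1.64, 1.91 and 0.981 CPM in the sh2 libraries and 8.46, 7.80 and 6.72 CPM in the sh1 libraries, against 39.8, 37.1 and 33.5 CPM in the shCtrl libraries. The groups were far apart, and with sh2 CDC45 had the lowest log2 fold change of the 49 genes. It was 24.4-fold lower with sh2 (-4.61 ± 0.23, edgeR adjusted p = 5.76e-08) and 4.81-fold lower with sh1 (-2.26 ± 0.20, edgeR adjusted p = 1.27e-05). TICRR, known as treslin, which bridges TOPBP1 and CDC45 at origins, had 1.49, 2.01 and 1.31 CPM in the sh2 libraries and 8.46, 7.86 and 8.96 CPM in the sh1 libraries, against 29.8, 26.3 and 29.0 CPM in the shCtrl libraries. It too separated all 3 groups (-4.14 ± 0.17 with sh2, edgeR adjusted p = 2.91e-08; -1.75 ± 0.15 with sh1, adjusted p = 1.27e-05; -2.39 ± 0.17 for sh2 over sh1, adjusted p = 3.74e-06).

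DBF4, the activating subunit of the CDC7 kinase, changed least among the firing factors. It had 37.9, 42.0 and 40.7 CPM in the sh2 libraries and 51.9, 40.3 and 45 CPM in the sh1 libraries, against 73.9, 63.3 and 57.0 CPM in the shCtrl libraries. Both shRNA groups lay below the controls and overlapped each other (-0.69 ± 0.13 with sh2, edgeR adjusted p = 8.12e-04; -0.50 ± 0.13 with sh1, adjusted p = 0.00885). CDC7 itself fell by 1.96 on the log2 scale with sh2 and by 1.20 with sh1, and CDC7 counts per DBF4 count averaged 41.0% of the control mean with sh2 and 61.2% with sh1.

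The 4 subunits of GINS, which bind one another in a single complex, did not change alike. GINS1, GINS2 and GINS3 fell by 2.98, 3.78 and 2.45 on the log2 scale with sh2 and by 1.57, 1.79 and 1.39 with sh1. GINS4 had 16.6, 16.3 and 13.5 CPM in the sh2 libraries and 15.6, 14.2 and 13.0 CPM in the sh1 libraries, against 40.5, 37.6 and 32.8 CPM in the shCtrl libraries. The 2 shRNA groups overlapped, both below the controls (-1.26 ± 0.13 with sh2, edgeR adjusted p = 1.09e-05; -1.37 ± 0.13 with sh1, adjusted p = 1.78e-05). GINS2 counts per GINS4 count were 0.0990, 0.119 and 0.106 in the sh2 libraries and 0.466, 0.448 and 0.484 in the sh1 libraries, against 0.688, 0.603 and 0.564 in the shCtrl libraries. This ratio averaged 17.5% of its control mean with sh2 and 75.3% with sh1. GINS4 and this pair were singled out after their values had been seen.

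**Figure D4:**
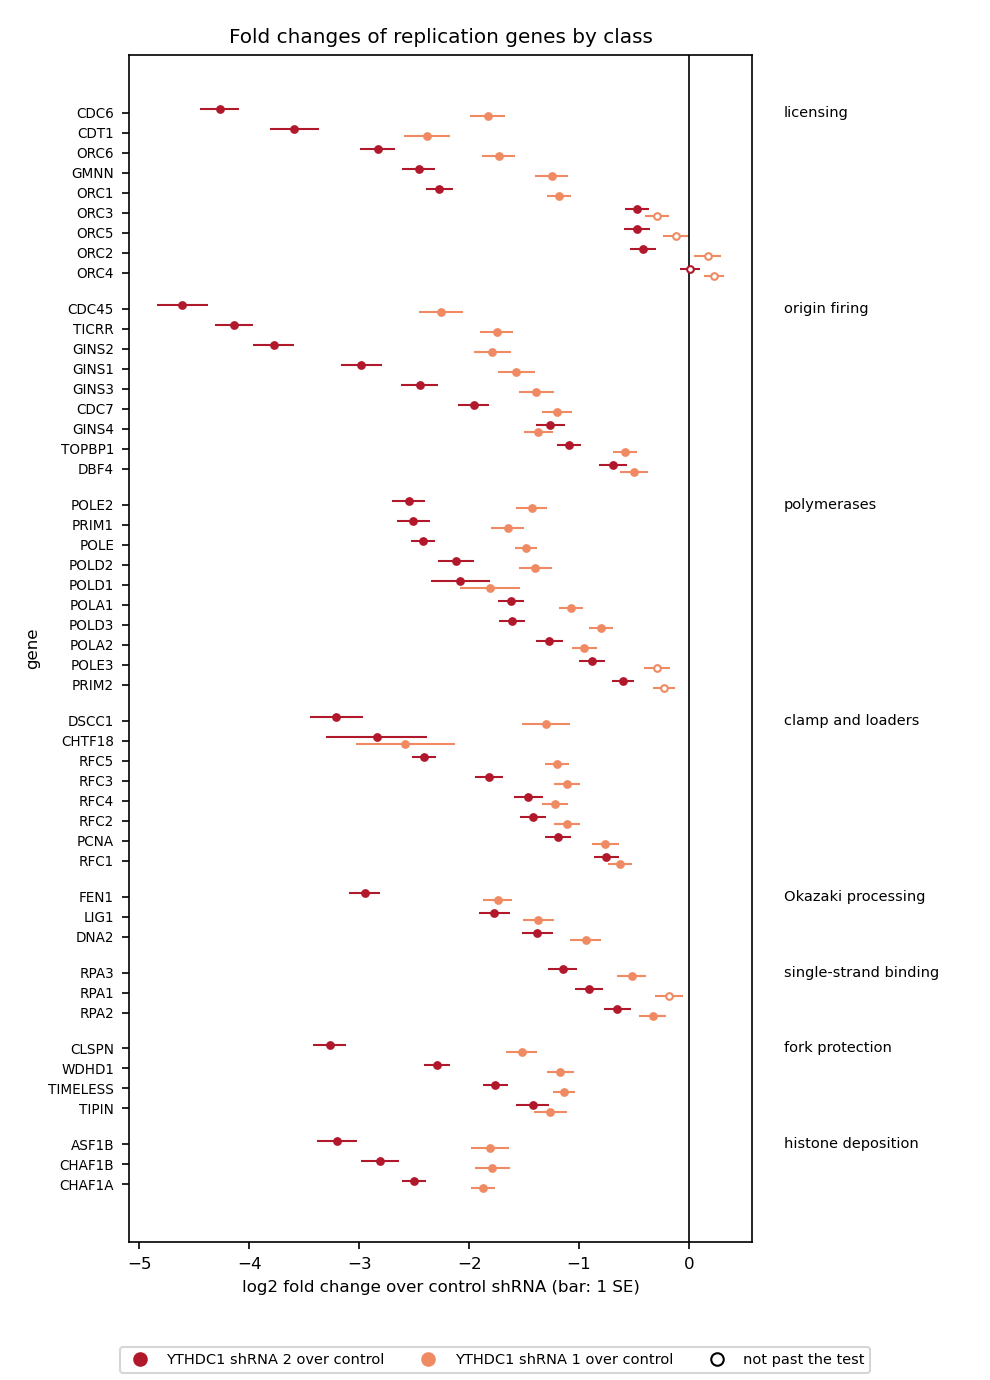
Log2 fold changes over control shRNA of the 49 genes, by class, with sh2 in dark red and sh1 in orange; bars are 1 SE from the edgeR fit of 9 libraries and open circles did not pass the test. With sh2 the 49 genes spread from -4.61 (CDC45) to 0.01 (ORC4). The narrowest classes are the RPA genes (-1.15 to -0.65) and the histone deposition genes (-3.20 to -2.50). The dark point lies left of the orange one for all genes but GINS4.

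Of the 10 polymerase and primase genes, 10 fell with sh2 and 8 with sh1 (medians -1.85 with sh2 and -1.24 with sh1). POLE2, the second subunit of polymerase epsilon, had 3.32, 4.18 and 4.44 CPM in the sh2 libraries and 9.0, 8.37 and 8.76 CPM in the sh1 libraries, against 25.9, 23.3 and 21.0 CPM in the shCtrl libraries. No library of one group reached the range of another (-2.55 ± 0.15 with sh2, edgeR adjusted p = 1.62e-07; -1.43 ± 0.14 with sh1, adjusted p = 2.45e-05). POLE, the catalytic subunit, fell by 2.42 with sh2 and by 1.48 with sh1. POLE3, a histone-fold subunit that polymerase epsilon shares with a chromatin remodeller, fell by 0.88 with sh2 and had -0.29 with sh1 (edgeR adjusted p = 0.0759). That sh1 value passed without shCtrl replicate 3 (-0.40, adjusted p = 0.0349), without sh1 replicate 1 (-0.42, adjusted p = 0.0177), with the replicate number as a block (adjusted p = 0.0403) and over every transcript row (adjusted p = 0.0487).

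Primase showed a similar contrast between its subunits. PRIM2, the large regulatory subunit, had 35.8, 38.7 and 36.8 CPM in the sh2 libraries and 52.0, 44.0 and 48.4 CPM in the sh1 libraries, against 61.3, 54.9 and 53.3 CPM in the shCtrl libraries. The sh1 libraries came close to the lowest control without overlapping it (-0.60 ± 0.10 with sh2, edgeR adjusted p = 4.35e-04; -0.23 ± 0.10 with sh1, adjusted p = 0.0927). PRIM1, the catalytic subunit, fell by 2.51 with sh2 and by 1.65 with sh1, and PRIM1 counts per PRIM2 count averaged 26.7% of the control mean with sh2 and 37.5% with sh1. POLE2 counts per POLE3 count averaged 31.4% of it with sh2 and 46.0% with sh1. POLA1 and POLA2, the polymerase part of the primase complex, fell by 1.62 and 1.27 with sh2 and by 1.07 and 0.95 with sh1. POLD1, POLD2 and POLD3, of polymerase delta, fell by 2.08, 2.12 and 1.61 with sh2 and by 1.81, 1.40 and 0.80 with sh1.

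All 8 genes of the clamp and its loaders fell with each shRNA (medians -1.64 with sh2 and -1.16 with sh1). PCNA, the ring that holds polymerases on DNA, had 67.4, 63.7 and 60.2 CPM in the sh2 libraries and 97.0, 88.2 and 73.7 CPM in the sh1 libraries, against 166, 140 and 132 CPM in the shCtrl libraries. Its groups did not overlap, but its change was among the smaller ones (-1.19 ± 0.12 with sh2, edgeR adjusted p = 1.36e-05; -0.76 ± 0.12 with sh1, adjusted p = 6.97e-04). DSCC1, a subunit of the alternative clamp loader that acts in sister chromatid cohesion, had 1.55, 2.46 and 1.41 CPM in the sh2 libraries and 8.10, 6.36 and 6.12 CPM in the sh1 libraries, against 19.6, 17.1 and 13.9 CPM in the shCtrl libraries. It was 9.27-fold lower with sh2 (-3.21 ± 0.24, edgeR adjusted p = 1.03e-06) and 2.46-fold lower with sh1 (-1.30 ± 0.22, adjusted p = 8.03e-04).

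RFC1, the large subunit of the main loader, had 71.1, 76.2 and 76.8 CPM in the sh2 libraries and 87.1, 71.0 and 85.3 CPM in the sh1 libraries, against 135, 128 and 114 CPM in the shCtrl libraries. The shRNA groups overlapped each other below the controls (-0.75 ± 0.11 with sh2, edgeR adjusted p = 1.34e-04; -0.63 ± 0.11 with sh1, adjusted p = 8.50e-04). The small subunits RFC2, RFC3, RFC4 and RFC5 fell by 1.42, 1.82, 1.46 and 2.41 with sh2 and by 1.11, 1.11, 1.22 and 1.20 with sh1. RFC5 counts per RFC1 count averaged 31.7% of the control mean with sh2 and 67.9% with sh1. CHTF18, the large subunit of the cohesion loader, had 1.64, 0.860 and 0.940 CPM in the sh2 libraries and 0.715, 2.38 and 0.917 CPM in the sh1 libraries, against 6.23, 7.64 and 10.3 CPM in the shCtrl libraries. Its log2 fold change was -2.84 ± 0.46 with sh2 (edgeR adjusted p = 5.73e-04) and -2.58 ± 0.45 with sh1 (adjusted p = 0.00154), and without sh1 replicate 2, its highest sh1 library, the sh1 value was -3.31.

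The 3 genes of Okazaki fragment processing fell with each shRNA (medians -1.77 with sh2 and -1.37 with sh1). FEN1, the flap endonuclease that trims RNA primers, had 6.76, 6.42 and 6.05 CPM in the sh2 libraries and 16.1, 16.3 and 12.1 CPM in the sh1 libraries, against 53.7, 49 and 46.2 CPM in the shCtrl libraries. Each group formed a narrow range of its own (-2.95 ± 0.14 with sh2, edgeR adjusted p = 4.69e-08; -1.74 ± 0.13 with sh1, adjusted p = 5.18e-06). DNA2, a nuclease and helicase that cuts long flaps, had 14.9, 17.9 and 15.6 CPM in the sh2 libraries and 22.5, 18.2 and 25.2 CPM in the sh1 libraries, against 44.7, 44.2 and 37.4 CPM in the shCtrl libraries. Its shRNA groups nearly touched, well below the controls (-1.38 ± 0.14 with sh2, edgeR adjusted p = 1.12e-05; -0.94 ± 0.14 with sh1, adjusted p = 3.66e-04). LIG1, the ligase that joins the fragments, fell by 1.77 with sh2 and by 1.37 with sh1.

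The RPA genes, which encode the trimer that coats single-stranded DNA in replication and in repair, changed least of the 8 classes (medians -0.91 with sh2 and -0.33 with sh1). RPA3, the small subunit, had 8.85, 9.99 and 9.26 CPM in the sh2 libraries and 16.2, 14.3 and 13.0 CPM in the sh1 libraries, against 23.7, 20.2 and 18.6 CPM in the shCtrl libraries. It fell with sh2 (-1.15 ± 0.13, edgeR adjusted p = 3.09e-05) and with sh1 (-0.52 ± 0.13, adjusted p = 0.00914), with no overlap. RPA1, the large subunit, had 27.5, 25.6 and 28.3 CPM in the sh2 libraries and 52.3, 43.9 and 38.7 CPM in the sh1 libraries, against 56.8, 44.8 and 51.5 CPM in the shCtrl libraries. The sh2 libraries stood alone at the low end, and the sh1 and shCtrl libraries overlapped (-0.91 ± 0.13 with sh2, edgeR adjusted p = 1.53e-04; -0.18 ± 0.13 with sh1, adjusted p = 0.295). RPA2, the middle subunit, had 38.3, 40.3 and 40.9 CPM in the sh2 libraries and 57.6, 46.5 and 45.2 CPM in the sh1 libraries, against 68.5, 63.4 and 56.2 CPM in the shCtrl libraries. It fell with sh2 (-0.65 ± 0.12, edgeR adjusted p = 7.44e-04). Its call with sh1, where 1 library overlapped the controls, was marginal (-0.33 ± 0.12, edgeR adjusted p = 0.0442), and it was lost without shCtrl replicate 1 or 2, sh1 replicate 2 or 3, or sh2 replicate 2 or 3 (adjusted p from 0.0654 to 0.146). It was also lost with RLE size factors (adjusted p = 0.0508) and with only the compared groups in the fit (adjusted p = 0.0754).

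The 4 fork protection genes fell with each shRNA (medians -2.03 with sh2 and -1.21 with sh1). CLSPN, or claspin, which relays checkpoint signals from stalled forks, had 7.55, 6.65 and 6.17 CPM in the sh2 libraries and 25.2, 18.3 and 25.2 CPM in the sh1 libraries, against 70.2, 66.9 and 59.3 CPM in the shCtrl libraries. The 3 groups were well apart (-3.27 ± 0.15 with sh2, edgeR adjusted p = 4.69e-08; -1.52 ± 0.14 with sh1, adjusted p = 1.99e-05). TIPIN, which binds TIMELESS at the fork, had 7.97, 7.87 and 7.89 CPM in the sh2 libraries and 9.51, 8.03 and 8.91 CPM in the sh1 libraries, against 24.0, 22.7 and 16.8 CPM in the shCtrl libraries. Its shRNA groups lay side by side (-1.42 ± 0.15 with sh2, edgeR adjusted p = 1.42e-05; -1.26 ± 0.15 with sh1, adjusted p = 7.89e-05), and CLSPN counts per TIPIN count averaged 27.4% of the control mean with sh2 and 82.5% with sh1. TIMELESS fell by 1.76 with sh2 and by 1.14 with sh1, and WDHD1, the AND-1 protein that ties polymerase alpha to the helicase, fell by 2.29 with sh2 and by 1.17 with sh1.

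The 3 histone deposition genes fell by more than any other class as judged by the median (-2.81 with sh2 and -1.81 with sh1), and their summed level came to 15.4% of the control mean with sh2 and 27.9% with sh1. ASF1B, a histone chaperone of dividing cells, had 3.89, 3.38 and 3.03 CPM in the sh2 libraries and 9.83, 10.3 and 6.74 CPM in the sh1 libraries, against 33.5, 30.0 and 30.7 CPM in the shCtrl libraries. Each group kept to its own range (-3.20 ± 0.18 with sh2, edgeR adjusted p = 1.39e-07; -1.81 ± 0.17 with sh1, adjusted p = 1.73e-05). CHAF1A, the large subunit of the chromatin assembly factor that follows PCNA, had 12, 13.1 and 11.3 CPM in the sh2 libraries and 17.1, 19.1 and 20.1 CPM in the sh1 libraries, against 64.7, 73.4 and 67.7 CPM in the shCtrl libraries. It fell with sh2 (-2.50 ± 0.11, edgeR adjusted p = 3.80e-08) and with sh1 (-1.87 ± 0.11, adjusted p = 1.25e-06). CHAF1B, its partner, fell by 2.81 with sh2 and by 1.79 with sh1.

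**Figure D5:**
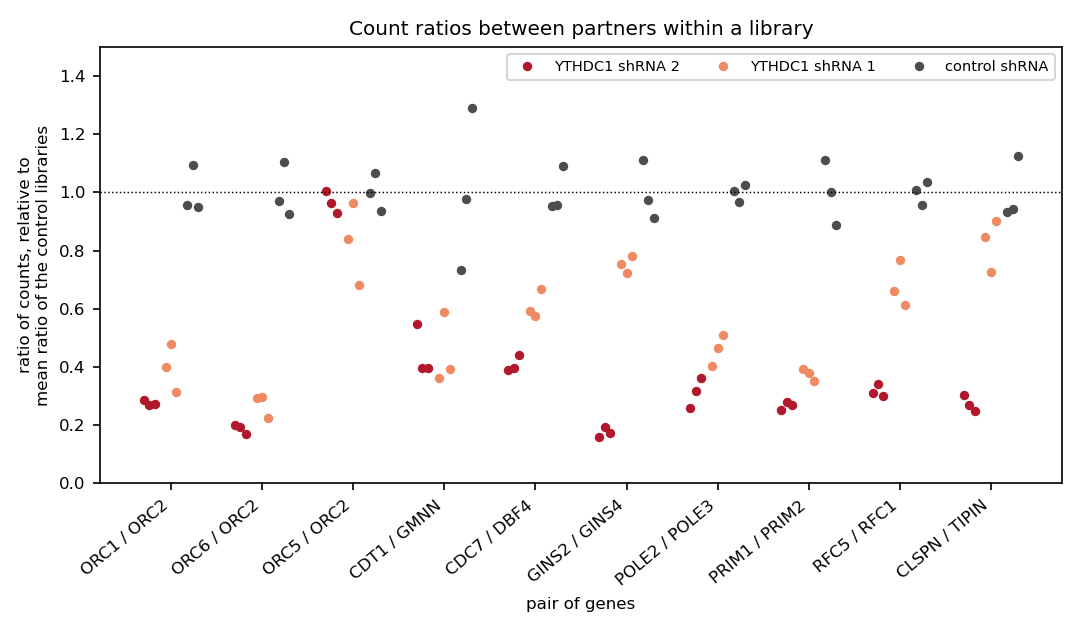
Ratio of the counts of 2 partner genes in each library, divided by the mean ratio of the 3 control libraries (dotted line at 1), for 10 pairs picked after seeing the data. ORC5 / ORC2 lies nearest the line, CDT1 / GMNN points of both shRNAs overlap below it, and GINS2 / GINS4, RFC5 / RFC1 and CLSPN / TIPIN are far lower with sh2 than with sh1.

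The direct comparison of the shRNAs used no control library in its contrast. With sh2, 36 of the 49 genes were lower than with sh1, 0 were higher and 13 did not pass (median log2 fold change of sh2 over sh1 -0.71). Over all genes tested, 16.5% were lower with sh2 than with sh1 and the median was -0.03. The value was negative for 48 genes, and the remaining one was GINS4 (0.11 ± 0.13, edgeR adjusted p = 0.542). By class, 7 of 9 licensing factors were lower with sh2, 7 of 9 firing factors, 8 of 10 polymerase genes, 4 of 8 clamp and loader genes, 2 of 3 Okazaki genes, 2 of 3 RPA genes, 3 of 4 fork protection genes and 3 of 3 histone deposition genes. CDC6, TICRR, CDC45, GINS2 and DSCC1 differed most, by -2.44, -2.39, -2.34, -1.99 and -1.91.

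Several of these differences between the shRNAs sat at the threshold. Without sh2 replicate 1, 34 genes passed and the median was -0.65. The call of ORC5 (-0.35, edgeR adjusted p = 0.0498) was lost on leaving out any 1 library except sh1 replicate 3 (adjusted p from 0.0514 to 0.168). The call of DNA2 (-0.45, adjusted p = 0.0304) was lost without shCtrl replicate 2, sh1 replicate 1 or 3, or sh2 replicate 1 or 3 (0.0520 to 0.102). That of PCNA (-0.44, adjusted p = 0.0194) was lost without sh1 replicate 1 or 2 or sh2 replicate 2 or 3 (0.0520 to 0.0914), and that of PRIM2 (-0.37, adjusted p = 0.0157) without sh1 replicate 1 or sh2 replicate 1 or 3 (0.0520 to 0.0642). LIG1 (-0.40, adjusted p = 0.0529) passed without sh1 replicate 1 or 3 or sh2 replicate 1, and POLA2, RFC2 and RPA2 passed without sh1 replicate 3 (adjusted p = 0.0340, 0.0175 and 0.0339).

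Promoter sequences were examined because the genes were low together, as a description only. The RefSeq table for GRCh38.p14 held windows of 300 bases, from 250 before to 50 after the start of the gene, for 43 of the 49 genes; this build differs from that of the counts. It gave none for GINS4, DSCC1, POLD3, DNA2, RPA2 and RPA3. The windows of 5 genes follow, written 5′ to 3′ on the strand of the gene: CDC6 and CDC45, whose transcripts were the lowest relative to control with sh2, ORC1 and ORC4 as subunits of the same complex that differed, and PCNA. They are CDC6 at chr17:40287629-40287928 (plus strand), CDC45 at chr22:19479670-19479969 (plus strand), ORC1 at chr1:52404374-52404673 (minus strand), PCNA at chr20:5126573-5126872 (minus strand) and ORC4 at chr2:148021502-148021801 (minus strand). Capitals mark E2F-like letters: TTCCCGC or TTGGCGC or TTCGCGC or TTGCCGC or GGCGGGA, read on either strand.
CDC6: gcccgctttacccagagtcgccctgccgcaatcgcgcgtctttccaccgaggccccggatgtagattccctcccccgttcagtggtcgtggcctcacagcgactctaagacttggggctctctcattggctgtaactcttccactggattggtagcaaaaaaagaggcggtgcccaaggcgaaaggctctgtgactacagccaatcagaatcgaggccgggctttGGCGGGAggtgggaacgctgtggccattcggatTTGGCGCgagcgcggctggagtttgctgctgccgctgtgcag
CDC45: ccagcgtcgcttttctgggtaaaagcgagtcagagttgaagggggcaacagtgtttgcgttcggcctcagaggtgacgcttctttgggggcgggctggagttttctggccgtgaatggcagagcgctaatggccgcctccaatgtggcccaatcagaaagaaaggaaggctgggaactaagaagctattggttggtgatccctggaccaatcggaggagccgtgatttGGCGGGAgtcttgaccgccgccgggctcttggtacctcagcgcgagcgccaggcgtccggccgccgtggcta
ORC1: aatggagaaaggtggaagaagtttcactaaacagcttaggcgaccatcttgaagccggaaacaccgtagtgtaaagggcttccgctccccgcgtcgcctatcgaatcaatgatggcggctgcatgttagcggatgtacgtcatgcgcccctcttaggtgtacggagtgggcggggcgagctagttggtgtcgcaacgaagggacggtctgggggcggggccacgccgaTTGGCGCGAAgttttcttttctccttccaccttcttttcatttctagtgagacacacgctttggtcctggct
PCNA: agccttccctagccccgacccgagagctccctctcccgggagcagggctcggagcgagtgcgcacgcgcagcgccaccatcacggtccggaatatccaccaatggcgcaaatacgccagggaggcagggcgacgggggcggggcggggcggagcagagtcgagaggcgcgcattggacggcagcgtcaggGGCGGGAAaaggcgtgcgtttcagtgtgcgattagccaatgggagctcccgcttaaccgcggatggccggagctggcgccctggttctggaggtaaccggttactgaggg
ORC4: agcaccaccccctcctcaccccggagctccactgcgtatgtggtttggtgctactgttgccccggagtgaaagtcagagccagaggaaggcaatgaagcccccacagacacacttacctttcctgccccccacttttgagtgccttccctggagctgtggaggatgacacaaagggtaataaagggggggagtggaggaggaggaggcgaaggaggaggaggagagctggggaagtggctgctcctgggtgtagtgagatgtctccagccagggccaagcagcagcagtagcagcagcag

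CDC6 held such letters at -25 and 9 relative to the start of the gene (its first base is 1), CDC45 at -22, ORC1 at -22 and -19, and PCNA at -60 and -59, where the matches overlap. ORC4 held none. Among the 43 windows, 32 (74.4%) held at least 1 match of this set, against 34.5% of the windows of 11269 genes tested and 23.3% of all 27305 windows in the table. Of the 67 matches, with overlapping ones such as those in PCNA counted separately, 58 began from -100 onward. Such a near match stood in 32 windows (74.4%), against 21.7% of those of the genes tested. The set was widened after the sequences had been seen. The original and stricter letters (TTTCCCGC, TTTGGCGC, TTTCGCGC or TTTGCCGC) stood in 15 windows (34.9%), against 5.06% of the genes tested and 3.33% of all windows.

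With sh2, the median log2 fold change was -2.42 for the 15 genes with a match of the stricter letters and -2.10 for the 28 without, and with sh1 it was -1.39 with a match and -1.21 without. With sh2, the median was -2.20 for the 32 genes with a match of the wider set (from -4.61 to -0.42) and -2.08 for the 11 without (from -4.14 to 0.01). With sh1 these medians were -1.21 with a match and -1.26 without, the other way round from the stricter letters. On leaving out sh2 replicate 1 the sh2 medians were -2.45 with and -2.20 without a stricter match, and -2.23 with and -2.24 without a wider one. The ranges of the genes with and without a match overlapped in both sets. TICRR, FEN1 and ORC6, without a match of the wider set, fell by 4.14, 2.95 and 2.83 with sh2, whereas ORC4, PRIM2, DBF4 and POLE3, also without, had 0.01, -0.60, -0.69 and -0.88. The CCAAT letters bound by NFY stood in 23 windows (53.5%), against 36.3% of the genes tested and 35.7% of all windows. With sh2 the median was -2.42 for the 23 genes with CCAAT and -1.79 for the 20 without, and with sh1 it was -1.48 with CCAAT and -1.19 without. The sh2 medians without sh2 replicate 1 were -2.45 with CCAAT and -1.83 without. CHR letters (TTTGAA or TTTAAA) stood in 3 windows (6.98%), against 17.7% of the genes tested and 24.3% of all windows, and the CREB letters TGACGTCA in 2 (4.65%), against 2.92% of the genes tested and 1.98% of all windows. A match is no proof of binding, and its absence says only that these letters are not in the window.

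Other genes of the replication pathway moved the same way. Of 31 further replication genes, 25 fell and 0 rose with sh2, and 22 fell and 1 rose with sh1 (medians -1.85 with sh2 and -1.07 with sh1, or -1.88 with sh2 and -1.09 with sh1 without sh2 replicate 1). MCM10, which helps to activate the helicase, had the lowest value with sh2 (-4.59 ± 0.19, edgeR adjusted p = 2.89e-08). The smallest fall that passed with sh2 was that of MCM9 (-0.36, adjusted p = 0.0249), a call lost without shCtrl replicate 1, 2 or 3 or sh2 replicate 3 (adjusted p from 0.0503 to 0.111). The 1 gene that rose with sh1 was TOP1, a topoisomerase also used in transcription (0.51, adjusted p = 0.0236), and it did not pass without shCtrl replicate 2 or 3 or sh1 replicate 1 (0.0914 to 0.117). Of 8 genes of nucleotide supply, 8 fell with sh2 and 7 with sh1 (8 without sh2 replicate 1). With sh2 they ran from RRM2 of ribonucleotide reductase (-4.42) to CTPS1 of cytidine triphosphate synthesis (-0.56). Over all genes tested, 27.4% fell with sh2 and 19.0% with sh1.

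Markers of cycling cells moved with the replication genes. All 11 fell with each shRNA, also without sh2 replicate 1. Over all genes tested, 27.4% fell with sh2 and 19.0% with sh1. The medians of the 11 were -3.55 with sh2 and -1.58 with sh1. Without sh2 replicate 1 they were -3.62 with sh2 and -1.60 with sh1. The summed level of the 11 was 74.4 to 88.8 CPM in the sh2 libraries and 314 to 396 CPM in the sh1 libraries, against 884 to 1077 CPM in the shCtrl libraries. MKI67, the usual marker of cycling cells, had 18.9, 25.0 and 20.3 CPM in the sh2 libraries and 162, 127 and 161 CPM in the sh1 libraries, against 433, 349 and 397 CPM in the shCtrl libraries. The 3 groups did not overlap in it. E2F2, an activating E2F, had the lowest value with sh2 (-4.54) and CCNE1, or cyclin E, the smallest (-0.79). CCNE1 was also the 1 marker that was higher with sh2 than with sh1 (0.69 ± 0.17, edgeR adjusted p = 0.00912). The part of the share of cycling cells in the replication result was not tested.

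Markers of monocytes and macrophages moved the other way. With sh2, 10 of 10 rose and with sh1 5 rose, 0 fell (medians 2.93 with sh2 and 0.95 with sh1). Over all genes tested, 27.5% rose with sh2 and 20.4% with sh1. Without sh2 replicate 1, 10 rose with sh2 and 6 with sh1 (medians 2.77 with sh2 and 0.93 with sh1). Their summed level was 1389 to 1952 CPM in the sh2 libraries and 468 to 650 CPM in the sh1 libraries, against 276 to 296 CPM in the shCtrl libraries. CD14, MRC1 and CD163 lay under 1 CPM in the controls. CD163, a scavenger receptor of macrophages, had 10, 5.98 and 7.13 CPM in the sh2 libraries and 0.199, 0.259 and 0.281 CPM in the sh1 libraries, against 0.0637, 0.126 and 0.0601 CPM in the shCtrl libraries, where it was close to the limit of 3 counts. FCGR1A, an Fc receptor, rose least with sh2 (2.07-fold, edgeR adjusted p = 0.00270), and the call of MRC1 with sh2 was lost without shCtrl replicate 3 or sh2 replicate 3 (adjusted p = 0.0542 and 0.0558). The part of these markers in the replication result was not tested. Of 9 myeloid leukemia markers, 3 rose and 3 fell with sh2 (4 fell without sh2 replicate 1), and 4 rose and 2 fell with sh1. With sh2 these counts were near the shares over all genes tested (27.5% rose and 27.4% fell). SPI1, LYZ and PTPRC rose and FLT3 and MEIS1 fell with each shRNA. LYZ rose 14.2-fold with sh2 and 13.7-fold with sh1, and MPO rose 2.94-fold with sh1 and fell 2.41-fold with sh2. The sh1 call of SPI1 was lost without shCtrl replicate 1, 2 or 3, sh1 replicate 1 or 2, or sh2 replicate 3 (edgeR adjusted p from 0.0631 to 0.162). That of FLT3 was lost without shCtrl replicate 2 (0.0548). Of the 6 lymphocyte markers, 5 lay under 1 CPM in the controls and NKG7 alone rose, with sh2 (and with sh1 without sh2 replicate 1, edgeR adjusted p = 0.0442, or without sh1 replicate 3, adjusted p = 0.00236). All 4 erythroid markers lay under 1 CPM. Of the 6 epithelial and stromal markers, EPCAM, COL1A1 and COL1A2 lay under 1 CPM, PECAM1 rose with each shRNA and KRT8 fell with sh2, a call lost without shCtrl replicate 2 or 3 or sh2 replicate 2 (edgeR adjusted p from 0.0529 to 0.0719). The summed level of these 6 was 171 to 191 CPM in the sh2 libraries and 121 to 175 CPM in the sh1 libraries, against 26.6 to 29.9 CPM in the shCtrl libraries. PECAM1, an adhesion molecule of endothelial and blood cells, made up most of this sum (168 to 189 CPM in the sh2 libraries and 115 to 172 CPM in the sh1 libraries, against 19.7 to 26.8 CPM in the shCtrl libraries), and no other member of the list rose.

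The counts carry limits that differ between genes. Of the 49 genes, 28 had several transcript rows in the table, and for 25 of these the second row held at least 95% of the highest. The other 3 were ORC5, PRIM2 and RFC3. The lower row of ORC5 held 56.5 to 59.2% of the higher one in the sh2 libraries and 55.6 to 57.1% in the sh1 libraries, against 52.5 to 57.1% in the shCtrl libraries. For PRIM2 the share was 30.0 to 34.7% with sh2 and 33.8 to 36.8% with sh1, against 31.6 to 34.7% with shCtrl. For RFC3 it was 63.6 to 66.7% with sh2 and 59.6 to 63.9% with sh1, against 63.7 to 64.8% with shCtrl. The groups overlapped in all 3 genes, so no shift between these rows was detected. The 11 genes with named pseudogenes or copies, ORC1, DBF4, POLD2, PRIM2, PCNA, RFC3, RFC5, FEN1, RPA2, RPA3 and TIPIN, are uncertain to the extent that the counting shared reads with those copies.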

How the data were processed

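The authors deposited 1 table of whole-number, unnormalized counts with a row per transcript and a column for each of the 9 libraries. Per the submitters' processing notes the authors used STAR and DESeq with build hg19; tool versions, the counter, whether it used strand and how it treated multi-mapping reads: not given in the sources used here. Of 48104 rows, 80 had symbols turned into dates; 2 of these could not be restored and were left out. The row with the highest total was kept per symbol. Per-sample columns not used numbered 0.

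Testing used edgeR 4.0.16 (R 4.3.3). After filterByExpr, which left 16746 genes, library sizes were TMM-scaled (a trimmed mean of M values), all 9 libraries entered 1 robust quasi-likelihood fit with a mean per group, and two-sided F-tests were adjusted by Benjamini-Hochberg over all genes tested, at 0.05. The SE is the log2 fold change divided by the square root of F. The steps were tested on simulated counts. DESeq2 1.42.0 and the other settings named in the closing section served as alternatives.

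The members, their classes and the marker lists were chosen with earlier results of these data known. Values in every library are given for PCNA, CDC45 and, in each class, the called gene with the lowest sh2 value, the gene nearest 0 with sh2, genes that passed upward or with neither shRNA, and the gene that differed most between the shRNAs; other genes so described were picked after their values were seen. Lists: other replication genes, nucleotide supply, proliferation, myeloid leukemia, monocyte and macrophage, lymphocyte, erythroid, and epithelial and stromal markers.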

Additional observations from a re-analysis of the deposited data

How the results depend on the processing

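Member calls numbered 48 with sh2 under all 16 alternatives, 41 to 44 with sh1 and 32 to 39 for sh2 over sh1. The alternatives were RLE size factors, no filter on low counts, the replicate number as a block and only the compared groups in the fit. The others were the ribosomal RNA precursor left out, each library left out in turn, the DESeq2 Wald test and every transcript row. With the precursor left out, the calls numbered 48 with sh2, 42 with sh1 and 35 for sh2 over sh1. Direction and side of the threshold held in 779 of 784 single values with sh2, 768 of 784 with sh1 and 745 of 784 for sh2 over sh1. The calls that changed were those of ORC3, POLE3 and RPA2 with sh1, and of ORC5, DNA2, PCNA, PRIM2, LIG1, POLA2, RFC2 and RPA2 for sh2 over sh1. The median log2 fold change with sh2 was -2.04 with no filter on low counts and -2.02 to -1.89 on leaving out 1 library each. For sh2 over sh1 it was -0.74 with no filter, -0.67 over every transcript row and -0.71 to -0.65 on leaving out 1 library. The ORC4 value with sh2, which never passed, was -0.06 with no filter, -0.04 over every transcript row and -0.02 to 0.06 on leaving out 1 library, and the cause was not tested. Values of sh2 over sh1 of POLD1 and CHTF18, which never passed, were 0.15 and 0.48 without sh1 replicate 2, the highest sh1 library for both, and ran from -0.46 to 0.15 and from -0.59 to 0.48 on leaving out 1 library. The stricter E2F letters gave 34.9% of member promoters and the wider ones, chosen after seeing the data, 74.4%.

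With the replicate block, 48 genes were called with sh2, 43 with sh1 and 35 for sh2 over sh1. Libraries with the same number correlated from -0.088 to 0.568 in their deviations from the group means. Those with different numbers correlated from -0.515 to 0.262. The highest value was that of shCtrl replicate 1 with sh1 replicate 1. The labels give no batch, and the numbers were not taken as pairs.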
